A study of Homo sapiens with 4 samples.

Results

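The transcripts described here are those of 8 enzymes of the mevalonate pathway, ACAT2, HMGCS1, MVK, PMVK, MVD, IDI1, FDPS and GGPS1, out of 32479 genes in the deposited table. They were chosen by their place in the pathway, from acetoacetyl-CoA to farnesyl and geranylgeranyl diphosphate. All 8 were found by their Ensembl identifiers, matched to symbols through GENCODE release 29, and all 8 reached 1 FPKM in either library of each comparison, the filter on low values. FPKM is the number of sequenced fragments scaled to gene length and to the library's total. RNA was sequenced from HepG2 cells given 20 uM PF-429242 for 24 h and from untreated HepG2 cells at 24 h, and from PLC/PRF/5 cells given the same dose for 24 h and from untreated PLC/PRF/5 cells at 24 h. The labels give every group as wild type, and the control as untreated, with no vehicle named. HepG2 is a line derived from a human hepatoblastoma, and PLC/PRF/5 is an established hepatoma line with hepatitis B virus DNA in its genome. PF-429242 inhibits site-1 protease, the Golgi enzyme that makes the first cut in the sterol regulatory element-binding proteins (SREBPs). Each group held 1 library, so a difference between a treated and an untreated library has no replicate check and carries no p-value.

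The mevalonate pathway turns acetyl-CoA into the branched building blocks of sterols, dolichol, ubiquinone and the lipid anchors of small GTPases. ACAT2 joins acetyl-CoA units to acetoacetyl-CoA and HMGCS1 adds another to make HMG-CoA, while the kinases MVK and PMVK and the decarboxylase MVD turn mevalonate into isopentenyl diphosphate. IDI1 isomerizes that product, FDPS joins the isomers into farnesyl diphosphate, and GGPS1 extends this to geranylgeranyl diphosphate. In liver cells, cut SREBP-2 enters the nucleus when sterols are scarce and raises the transcription of many genes of the pathway.

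The libraries held between 16722204 and 21387301 fragments. Genes of the mitochondrial genome took 27.6% of fragments in treated HepG2 and 16.6% in untreated HepG2, against 28.2% in treated PLC/PRF/5 and 21.3% in untreated PLC/PRF/5. The treated PLC/PRF/5 library stood apart: mitochondrial ribosomal RNA made up 0.447% of its fragments, against 3.26% in its control, and 8 RRP genes of ribosomal RNA processing together had 811 fragments, against 9986. Every PLC/PRF/5 ratio below rests on that library, the HepG2 values are those without it, and its part in the results was not tested. With totals that leave out the mitochondrial genome, the log2 ratios of (FPKM + 1), treated over control, of all 8 genes were below 0 in both lines. In HepG2 PMVK was then at -0.05 and GGPS1 at -0.11, close to the median of -0.01 over all genes. In PLC/PRF/5 they were at -0.33 and -0.18, beside a median of -0.02. All 10 hepatocyte markers reached 1 FPKM and summed to 9041 FPKM in treated HepG2, 10363 FPKM in its control, 3656 FPKM in treated PLC/PRF/5 and 3151 FPKM in its control. None of 5 fibroblast markers reached 1 FPKM in any library. Of 3 endothelial markers PECAM1 alone did, at no more than 1.36 FPKM, and of 4 blood cell markers LYZ alone did. LYZ was abundant, at 462 FPKM in treated HepG2, 504 FPKM in its control, 209 FPKM in treated PLC/PRF/5 and 179 FPKM in its control. In such bulk RNA, a smaller share of cells with a transcript and less of it in each cell cannot be told apart.

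With PF-429242, transcripts of 6 of the 8 enzymes were far lower in HepG2, and PMVK and GGPS1 were close to their controls. The 8 together summed to 32.5 FPKM in treated HepG2 and 165.7 FPKM in untreated HepG2. In PLC/PRF/5 the sums were 52.6 FPKM with PF-429242 and 126.0 FPKM without. All 8 log2 ratios of (FPKM + 1), treated over control, were below 0 in both lines, as were 82.4% of 12347 measured genes in HepG2 and 70.9% of 13144 in PLC/PRF/5. Those lower by 2-fold or more were 6 of 8 in HepG2, against 2.14% of all genes, and 4 of 8 in PLC/PRF/5, against 1.82%. ACAT2, HMGCS1, IDI1 and FDPS were lower by 2-fold or more in both lines, 4 of 8, against 0.316% of the 11062 genes measured in both. The median log2 ratio of the 8 was -2.02 in HepG2 and -1.01 in PLC/PRF/5, beside medians of -0.17 and -0.13 over all measured genes.

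**Figure D1:**
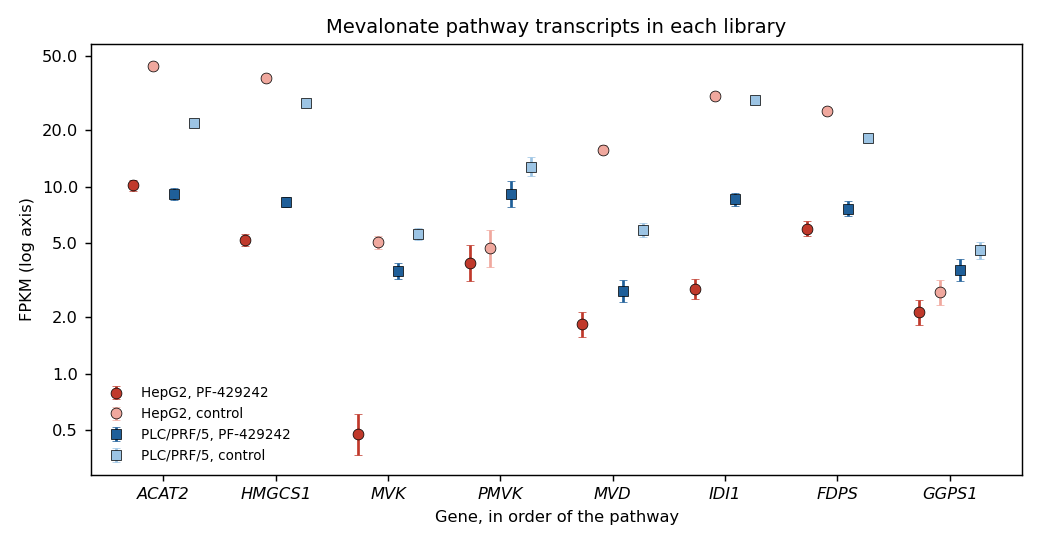
FPKM of each gene (log axis) in the 4 libraries, genes in order of the pathway; points are single libraries and bars are exact 95% Poisson counting intervals. Treated HepG2 lies far below its control for ACAT2, HMGCS1, MVK, MVD, IDI1 and FDPS, lowest of all at 0.477 FPKM for MVK, while PMVK and GGPS1 lie close to their controls.

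In the promoter window nearest the gene start, CCAAT boxes lay at the 5 enzymes with a window that were lower by 2-fold or more in HepG2, and not at PMVK and GGPS1. The CCAAT box is the letters bound by the factor NF-Y, a known partner of SREBPs at sterol gene promoters. Windows of 300 bases, 250 of them before the transcript start, were taken from RefSeq on GRCh38.p14 for 7 of the 8 genes, all but ACAT2. Where a gene had several windows, the one nearest the GENCODE gene start was used. The RefSeq start lay 272 bases from the GENCODE start at PMVK and 539 at MVK, with both windows inside the annotated gene. At the other genes it lay 51 (IDI1) to 134 (GGPS1) bases away. CCAAT, read on either strand (ATTGG on the other), occurred 5 times at MVK, 3 times at MVD and at FDPS, and 2 times at HMGCS1 and at IDI1. It occurred 0 times at PMVK and at GGPS1. The contrast depends on the window, since the other window of HMGCS1 and one other of IDI1 held CCAAT 0 times, the remaining IDI1 window 3 times, and the other windows of GGPS1 1 and 0 times. Of all 35116 windows in the RefSeq table, 34.6% held CCAAT at least once and 10.8% at least 2 times. The bases before each start are shown 5′ to 3′ on the gene's strand, with CCAAT and ATTGG in capitals. Each of the windows with CCAAT also held the GC box GGGCGG, as did that of PMVK. Whether any of these letters bear on the response was not tested.
HMGCS1: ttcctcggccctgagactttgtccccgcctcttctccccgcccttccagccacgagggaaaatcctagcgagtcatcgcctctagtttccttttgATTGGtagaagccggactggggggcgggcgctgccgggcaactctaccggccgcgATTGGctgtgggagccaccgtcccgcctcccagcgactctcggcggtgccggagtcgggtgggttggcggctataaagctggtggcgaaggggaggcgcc
MVK: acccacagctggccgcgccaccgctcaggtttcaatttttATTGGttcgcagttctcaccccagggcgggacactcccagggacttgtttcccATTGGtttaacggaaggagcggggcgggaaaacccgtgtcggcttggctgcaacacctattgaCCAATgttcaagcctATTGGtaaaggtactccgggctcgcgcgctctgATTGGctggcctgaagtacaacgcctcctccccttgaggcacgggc
MVD: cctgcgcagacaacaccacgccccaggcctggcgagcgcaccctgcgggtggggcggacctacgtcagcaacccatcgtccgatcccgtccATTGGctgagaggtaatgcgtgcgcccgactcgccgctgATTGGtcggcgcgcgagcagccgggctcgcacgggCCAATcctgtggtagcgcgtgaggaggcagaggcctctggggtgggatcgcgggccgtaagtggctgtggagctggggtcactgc
IDI1: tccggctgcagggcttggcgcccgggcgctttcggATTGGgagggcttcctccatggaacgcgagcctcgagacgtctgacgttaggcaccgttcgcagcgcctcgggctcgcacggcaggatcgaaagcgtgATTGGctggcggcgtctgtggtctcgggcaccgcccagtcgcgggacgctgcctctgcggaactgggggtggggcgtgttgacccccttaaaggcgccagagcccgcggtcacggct
FDPS: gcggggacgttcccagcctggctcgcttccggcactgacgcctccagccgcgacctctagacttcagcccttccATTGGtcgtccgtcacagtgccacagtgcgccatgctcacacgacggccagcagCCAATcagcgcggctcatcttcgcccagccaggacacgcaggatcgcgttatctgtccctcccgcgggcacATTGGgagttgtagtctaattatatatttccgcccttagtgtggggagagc
PMVK: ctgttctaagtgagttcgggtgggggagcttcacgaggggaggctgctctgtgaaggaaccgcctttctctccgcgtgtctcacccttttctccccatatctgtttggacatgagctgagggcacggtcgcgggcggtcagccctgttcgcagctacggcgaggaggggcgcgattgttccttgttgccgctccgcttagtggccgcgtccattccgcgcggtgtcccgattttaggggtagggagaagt
GGPS1: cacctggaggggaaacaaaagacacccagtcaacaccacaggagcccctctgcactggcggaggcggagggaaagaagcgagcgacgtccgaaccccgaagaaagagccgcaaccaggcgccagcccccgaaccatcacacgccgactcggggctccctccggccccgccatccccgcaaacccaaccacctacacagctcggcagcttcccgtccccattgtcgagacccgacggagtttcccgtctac
These windows lie at chr5:43313413-43313662 (HMGCS1, minus strand), chr12:109573544-109573793 (MVK, plus strand), chr16:88663092-88663341 (MVD, minus strand), chr10:1049120-1049369 (IDI1, minus strand), chr1:155308616-155308865 (FDPS, plus strand), chr1:154936720-154936969 (PMVK, minus strand) and chr1:235326966-235327215 (GGPS1, plus strand), all on GRCh38.p14. The matches are a description of letters and do not locate bound factors. Of the other motifs searched on both strands, the GC box GGGCGG was in 6 of the 7 windows and in 45.0% of all windows. CACCCCAC, an SREBP core as in the classic sterol element, was in 0 of the 7 and in 2.79% of all, and the looser CACNNCAC in 0 of the 7 and in 14.9%. These counts also depend on the window. An IDI1 window not used here held CACNNCAC 1 time, and the other GGPS1 windows held the GC box. The E-box CACGTG was in 0 of the 7 and in 7.26% of all. CACCCCA, a shorter form added after these promoters had been read and overlapping CACCCCAC, was found at MVK and MVD and in 8.08% of all windows.

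**Figure D2:**
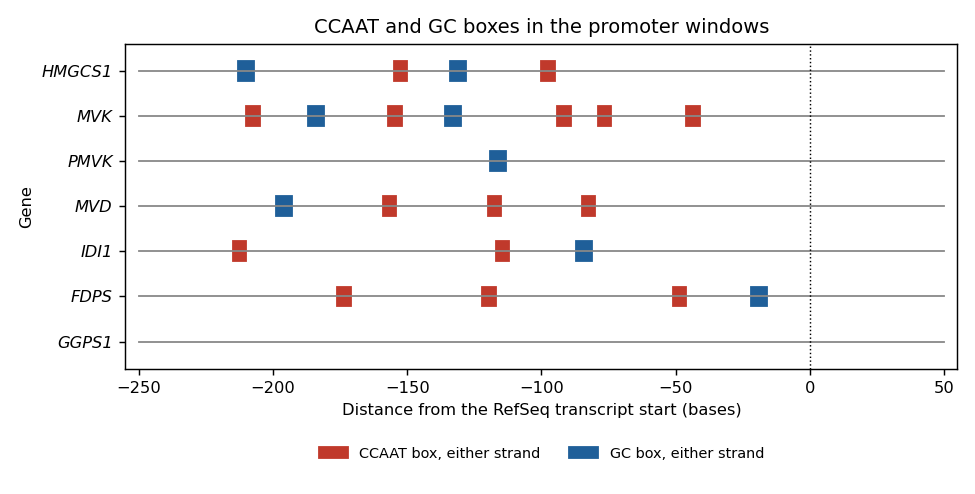
Position of CCAAT (red) and GC boxes (blue), on either strand, relative to the RefSeq transcript start (0, dotted line) in the 300-base window of each gene. MVK carries 5 CCAAT boxes and PMVK and GGPS1 carry 0.

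The first enzymes of the pathway were both abundant in untreated cells and both much lower with PF-429242. ACAT2 (chromosome 6, 159760328 to 159779055), the cytosolic thiolase, was at 10.2 FPKM in treated HepG2 and 43.8 FPKM in untreated HepG2, a ratio of 0.232 (95% counting interval 0.215 to 0.250). It was at 9.11 FPKM in treated PLC/PRF/5 and 21.8 FPKM in untreated PLC/PRF/5, a ratio of 0.418 (0.382 to 0.456). The treated libraries thus stood 1.12-fold apart (1.01 to 1.24, HepG2 over PLC/PRF/5) and the controls 2.01-fold (1.90 to 2.13). By FPKM, ACAT2 ranked 3004th of 9656 protein-coding genes that reached 1 FPKM in treated HepG2 and 611th of 9921 in its control.

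HMGCS1 (chromosome 5, 43289395 to 43313512), the cytosolic HMG-CoA synthase, catalyses the next step. It was at 5.18 FPKM in treated HepG2 and 38.0 FPKM in its control, a ratio of 0.136 (0.125 to 0.148), and at 8.29 FPKM in treated PLC/PRF/5 and 28.1 FPKM in its control, a ratio of 0.295 (0.274 to 0.317). HepG2 held less HMGCS1 than PLC/PRF/5 among the treated libraries (ratio 0.624, 0.565 to 0.689) and more among the controls (ratio 1.35, 1.30 to 1.41). Of 9992 measured protein-coding genes in HepG2 its log2 ratio, -2.66, was the 6th lowest.

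The mevalonate kinases differed from one another. MVK (chromosome 12, 109573255 to 109598117), which adds the first phosphate, was at 0.477 FPKM in treated HepG2 (63 fragments) and 5.03 FPKM in its control (546 fragments). Its ratio in HepG2 was 0.0948 (0.0719 to 0.123). In PLC/PRF/5 it was at 3.55 FPKM with PF-429242 and 5.56 FPKM without, a ratio of 0.638 (0.563 to 0.721). The untreated lines did not differ beyond counting error (ratio 0.905, 0.809 to 1.01, HepG2 over PLC/PRF/5), and the treated HepG2 library was the lowest of the 4. Because the pseudocount of 1 understates changes of low genes, the log2 ratio of (FPKM + 1) was -2.03 where that of FPKM itself was -3.40.

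PMVK (chromosome 1, 154924734 to 154936991), the kinase that adds the second phosphate, was at 3.92 FPKM in treated HepG2 and 4.71 FPKM in its control, from 80 and 79 fragments. That ratio of 0.832 had an interval of 0.602 to 1.15, so no difference was detectable at this depth. In PLC/PRF/5 it was at 9.11 FPKM with PF-429242 and 12.8 FPKM without, a ratio of 0.712 (0.581 to 0.871). Both HepG2 libraries lay below both PLC/PRF/5 libraries. On the log2 scale of (FPKM + 1), PMVK was the 4031st lowest of 9992 protein-coding genes in HepG2.

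MVD (chromosome 16, 88651935 to 88663161) decarboxylates mevalonate diphosphate to isopentenyl diphosphate. It was at 1.83 FPKM in treated HepG2 and 15.7 FPKM in its control, a ratio of 0.117 (0.0992 to 0.137). In PLC/PRF/5 it was at 2.77 FPKM with PF-429242 and 5.87 FPKM without, a ratio of 0.472 (0.403 to 0.552) that fell short of 2-fold once 1 FPKM was added (log2 ratio -0.86). MVD showed the widest spread between the untreated lines in favour of HepG2 among the 8 genes (ratio 2.67, 2.42 to 2.95).

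IDI1 (chromosome 10, 1039152 to 1049170), the isomerase, had the lowest log2 ratio of (FPKM + 1) of the 8 in both lines. By ratio of FPKM, IDI1 overlapped in counting interval with MVK in HepG2 (0.0948, 0.0719 to 0.123) and with HMGCS1 in PLC/PRF/5 (0.295, 0.274 to 0.317). It was at 2.84 FPKM in treated HepG2 and 30.5 FPKM in its control, a ratio of 0.0930 (0.0813 to 0.106), and its log2 ratio of -3.04 was the 3rd lowest of 12347 genes. In PLC/PRF/5 it was at 8.54 FPKM with PF-429242 and 29.1 FPKM without, a ratio of 0.293 (0.268 to 0.320) and a log2 ratio of -1.66, the 56th lowest of 13144 genes. The controls of the lines differed by less than counting error (ratio 1.05, 0.990 to 1.11).

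The prenyl diphosphate synthases at the end of the pathway differed in response. FDPS (chromosome 1, 155308748 to 155320666), which makes farnesyl diphosphate, was at 5.95 FPKM in treated HepG2 and 25.2 FPKM in its control, a ratio of 0.236 (0.212 to 0.262). It was at 7.62 FPKM in treated PLC/PRF/5 and 18.2 FPKM in its control, a ratio of 0.418 (0.377 to 0.464). GGPS1 (chromosome 1, 235327350 to 235344532), which makes geranylgeranyl diphosphate, was at 2.13 FPKM in treated HepG2 and 2.72 FPKM in its control, a ratio of 0.784 (0.629 to 0.976). It was at 3.59 FPKM in treated PLC/PRF/5 and 4.57 FPKM in its control, a ratio of 0.785 (0.664 to 0.928). GGPS1 was thus lower by about the same share in each line, and its log2 ratios were -0.25 in HepG2 and -0.28 in PLC/PRF/5. Over all genes the median was -0.17 and the lower quartile -0.30 in HepG2, and in PLC/PRF/5 they were -0.13 and -0.28, so GGPS1 lay at the lower quartile there. Under median-of-ratios scaling, which brings the medians near 0, the GGPS1 ratios were -0.10 and -0.15, and those of PMVK were -0.05 and -0.30.

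**Figure D3:**
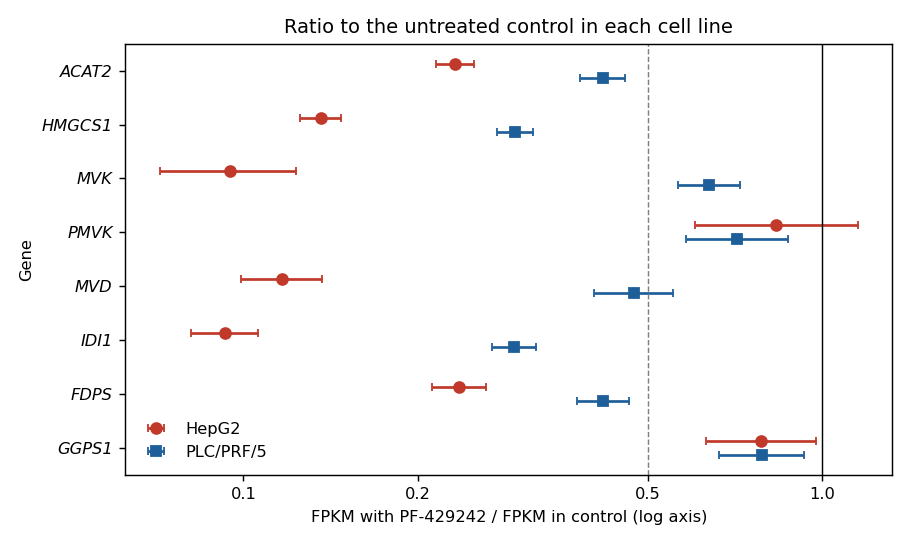
FPKM with PF-429242 divided by FPKM in the control (log axis) for each gene, in HepG2 (red) and PLC/PRF/5 (blue), with 95% counting intervals; the solid line marks 1 and the dashed line 0.5. MVK, MVD and IDI1 lie furthest left in HepG2, at 0.0948, 0.117 and 0.0930, and PMVK and GGPS1 lie between 0.5 and 1 in both lines.

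The responses of the lines were set side by side as the HepG2 ratio divided by the PLC/PRF/5 ratio, with an exact conditional interval for counting error. For 6 of the 8 genes the ratio was lower in HepG2, with an interval below 1. The quotient was 0.149 for MVK (0.110 to 0.199), 0.247 for MVD (0.197 to 0.310), 0.317 for IDI1 (0.270 to 0.372) and 0.461 for HMGCS1 (0.414 to 0.514). It was 0.556 for ACAT2 (0.495 to 0.625) and 0.564 for FDPS (0.485 to 0.655). For PMVK it was 1.17 (0.794 to 1.72) and for GGPS1 0.998 (0.755 to 1.32), so no difference between the lines was detectable in these genes. On the log2 scale of (FPKM + 1), 4 of 8 genes stood 2-fold or more apart between the lines (MVD, MVK, IDI1 and HMGCS1), against 2.95% of 11062 genes measured in both, and 6 of 8 were lower in HepG2 than in PLC/PRF/5, against 61.3%. HMGCS1 was just past that threshold, at a log2 difference of -1.01. The count was 3 under median-of-ratios scaling and also under totals without the mitochondrial genome. With 1 library per group the difference between the lines was not tested.

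**Figure D4:**
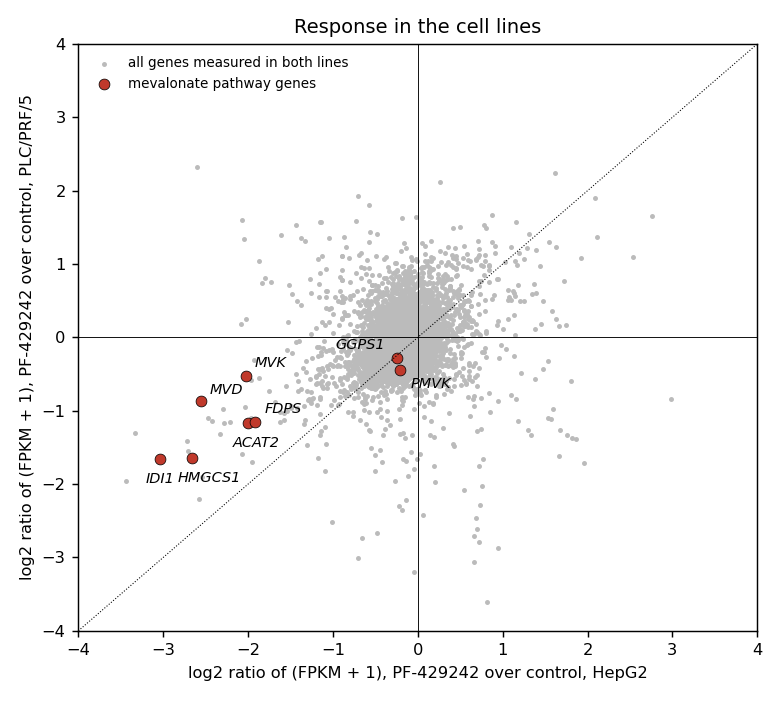
log2 ratio of (FPKM + 1), PF-429242 over control, in HepG2 (x axis) against PLC/PRF/5 (y axis), for 11062 genes measured in both lines (grey; 6 lie outside the axes) and the 8 mevalonate pathway genes (red); the dotted line marks equal ratios. ACAT2, HMGCS1, MVK, MVD, IDI1 and FDPS lie above the dotted line at the far left, with PMVK and GGPS1 inside the main cloud.

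The order of the levels differed between treated and untreated cells. In treated HepG2 the order by FPKM was ACAT2, FDPS, HMGCS1, PMVK, IDI1, GGPS1, MVD and MVK, with overlapping counting intervals between FDPS and HMGCS1, HMGCS1 and PMVK, PMVK and IDI1, and GGPS1 and MVD. In untreated HepG2 it was ACAT2, HMGCS1, IDI1, FDPS, MVD, MVK, PMVK and GGPS1, and only MVK and PMVK had overlapping counting intervals as neighbours. In treated PLC/PRF/5 PMVK, ACAT2, IDI1, HMGCS1 and FDPS formed a chain of overlapping neighbours between 7.62 and 9.11 FPKM, above GGPS1, MVK and MVD, of which GGPS1 and MVK overlapped. In untreated PLC/PRF/5 the order was IDI1, HMGCS1, ACAT2, FDPS, PMVK, MVD, MVK and GGPS1, with overlaps between IDI1 and HMGCS1 and between MVD and MVK. PMVK made up 12.1% of the pathway's summed FPKM in treated HepG2, against 2.84% in its control, and GGPS1 6.55%, against 1.64%. IDI1 made up 8.74% in treated HepG2, against 18.4% in its control.

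Set against each other with treatment, HepG2 over PLC/PRF/5, 3 of the 8 genes were lower in HepG2 by 2-fold or more on the log2 scale of (FPKM + 1), against 12.0% of 13285 genes. These were MVK (-1.62), IDI1 (-1.31) and PMVK (-1.04). Between the untreated lines, 2 of the 8 genes stood 2-fold or more apart on the same scale, close to the share over all genes (23.1% of 13861). These were MVD, higher in HepG2 (1.28), and PMVK, lower in HepG2 (-1.27). ACAT2 was just inside the threshold at 0.98.

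A shared effect of PF-429242 over both lines was fitted with limma to log2(FPKM + 1), blocking on the cell line, so that the lines served as the replicates and 1 residual degree of freedom was left. No gene of 12838 passed an adjusted p of 0.05 (0.00%), and so none of the 8. At an unadjusted p under 0.05, 2488 genes passed (19.4%), among them 7 of the 8. The median estimate over all genes was -0.14. The estimate was -2.35 ± 0.35 (SE) for IDI1, -2.15 ± 0.26 for HMGCS1, -1.71 ± 0.43 for MVD, -1.59 ± 0.22 for ACAT2 and -1.54 ± 0.20 for FDPS. It was -1.28 ± 0.39 for MVK, -0.33 ± 0.10 for PMVK and -0.26 ± 0.10 for GGPS1. By limma the adjusted p was 0.193 for IDI1, HMGCS1, ACAT2 and FDPS, 0.197 for MVD, 0.222 for MVK, 0.223 for PMVK and 0.276 for GGPS1, and all 8 were lower in both lines. By limma-voom on recovered fragments no gene passed either, with 3102 genes and 5 of the 8 at an unadjusted p under 0.05.

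Genes that lie against the members were read beside them, since strand was not given for these libraries and reads of overlapping genes may be shared. MMAB, which encodes an adenosyltransferase of vitamin B12 metabolism, starts 619 bases from MVK on the opposite strand and shares 306 exon bases with it. MMAB was at 0.931 FPKM in treated HepG2 and 4.75 FPKM in its control (ratio 0.196, 0.158 to 0.241), and at 0.949 FPKM in treated PLC/PRF/5 and 3.0 FPKM in its control (ratio 0.316, 0.251 to 0.396). In HepG2 MVK had the lower ratio of the pair, and in PLC/PRF/5 MMAB had, with intervals that did not overlap in either line. RUSC1-AS1, an antisense transcript with 693 exon bases shared with FDPS, had ratios of 0.239 (0.173 to 0.325) in HepG2 and 0.432 (0.337 to 0.551) in PLC/PRF/5, whose intervals take in those of FDPS itself.

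The other neighbours were nearer to their controls. TCP1, a chaperonin subunit gene with 397 exon bases shared with ACAT2 on the other strand, had ratios of 0.919 (0.888 to 0.951) in HepG2 and 0.926 (0.894 to 0.958) in PLC/PRF/5. WDR37, which starts 368 bases from IDI1, had 0.655 (0.545 to 0.786) and 0.877 (0.737 to 1.04). ARID4B, which starts 869 bases from GGPS1 on the other strand, had 0.983 (0.902 to 1.07) and 0.953 (0.881 to 1.03). A gene annotated as TBCE shares 1422 exon bases with GGPS1 on the same strand and had 0.651 (0.457 to 0.923) and 0.581 (0.404 to 0.826), so the GGPS1 values carry an uncertainty of assignment. For FDPS, 4 of 8 annotated pseudogenes were in the table and together held 10 fragments in treated HepG2, 8 in its control, 12 in treated PLC/PRF/5 and 12 in its control, against at least 450 for FDPS.

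Of the paralogs described here, ACAT1 was close to its controls and IDI2 was barely detected. ACAT1, the mitochondrial thiolase of ketone body and isoleucine metabolism, was at 12.2 FPKM in treated HepG2 and 12.9 FPKM in its control (ratio 0.946, 0.875 to 1.02). In PLC/PRF/5 it was at 12.5 FPKM with PF-429242 and 12.4 FPKM without (ratio 1.01, 0.934 to 1.09). IDI2 was listed at 0 in every library but treated PLC/PRF/5, where it was at 0.0868 FPKM.

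Downstream of farnesyl diphosphate, genes lower by 2-fold or more were common in the sterol list. The non-sterol lists held 0, near the share over all genes. The 12 enzymes from squalene to cholesterol were lower by 2-fold or more in 12 of 12 cases in HepG2 (median log2 ratio -1.65) and in 7 of 12 in PLC/PRF/5 (-1.01). DHCR7, the last reductase, was at 6.56 FPKM in treated HepG2 and 43.1 FPKM in its control, and at 8.22 FPKM in treated PLC/PRF/5 and 33.5 FPKM in its control. Of 16 genes that use isoprenoids for dolichol, ubiquinone, transfer RNA and protein prenylation, 0 were lower by 2-fold or more in either line, and the medians were -0.16 in HepG2 and -0.21 in PLC/PRF/5. The furthest from 0 were SRD5A3 of dolichol synthesis, with ratios of 0.689 (0.560 to 0.848) and 0.569 (0.471 to 0.684), COQ2 of ubiquinone synthesis, with 0.725 (0.599 to 0.877) and 0.635 (0.531 to 0.756), and the prenylcysteine methyltransferase ICMT, with 0.731 (0.689 to 0.775) and 0.764 (0.719 to 0.812). Of 11 genes of GTPases that carry prenyl groups, 0 were lower by 2-fold or more, with medians of -0.30 and -0.19. Over all measured genes 2.14% were lower by 2-fold or more in HepG2 and 1.82% in PLC/PRF/5, with medians of -0.17 and -0.13. Lists of 16 and 11 genes are too short to tell 0 from shares this small. By limma no gene of any of these lists passed an adjusted p of 0.05.

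Upstream, 3 genes of the cytosolic acetyl-CoA supply are named as those with the largest changes of their list. ACSS2, which activates acetate, was at 3.31 FPKM in treated HepG2 and 13.5 FPKM in its control (ratio 0.244, 0.216 to 0.275), and at 3.51 FPKM in treated PLC/PRF/5 and 6.49 FPKM in its control (ratio 0.541, 0.473 to 0.619). ACLY, which splits citrate, had ratios of 0.412 (0.396 to 0.429) and 0.591 (0.566 to 0.617), and the citrate carrier SLC25A1 had 0.516 (0.479 to 0.556) and 0.520 (0.474 to 0.571). The list of acetyl-CoA supply and ketone bodies had 2 of 8 measured genes lower by 2-fold or more in HepG2 (median -0.19) and 0 of 6 in PLC/PRF/5 (-0.45). Over all measured genes the shares were 2.14% in HepG2 and 1.82% in PLC/PRF/5. The medians of this list are over different genes and do not compare the lines. Those of its genes measured in HepG2 alone had log2 ratios of -0.02 and 0.006 there. Of the sterol regulators, 3 of 7 measured genes were lower by 2-fold or more in HepG2 (median -0.23) and 3 of 8 in PLC/PRF/5 (-0.72). These were not the same 3 genes, and the medians are again over different genes. The gene measured in PLC/PRF/5 alone was at -1.95 there, and a gene at -1.34 in HepG2 was at -0.93 in PLC/PRF/5. SREBF2, the gene of SREBP-2, had a HepG2 ratio of 0.160 (0.145 to 0.176) and a PLC/PRF/5 ratio of 0.366 (0.338 to 0.395), both between those of HMGCS1 and ACAT2 in the same line.

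**Figure D5:**
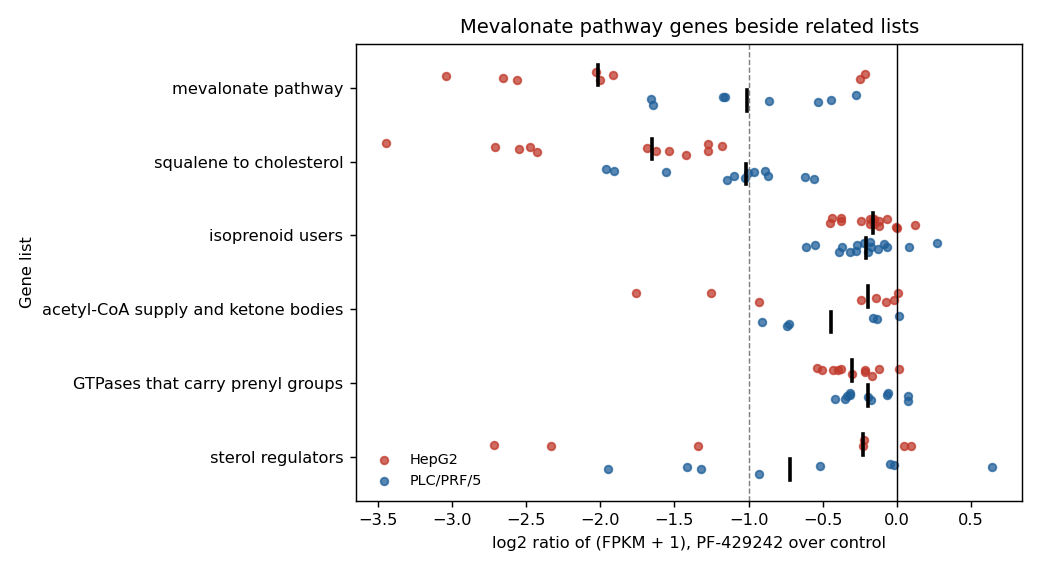
log2 ratio of (FPKM + 1), PF-429242 over control, for the mevalonate pathway and 5 related gene lists; each point is a gene in HepG2 (red) or PLC/PRF/5 (blue), black bars are medians and the dashed line marks 2-fold lower. The mevalonate pathway (medians -2.02 and -1.01) and squalene to cholesterol (-1.65 and -1.01) lie to the left, and isoprenoid users (-0.16 and -0.21) near 0.

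By distance in the log2 ratios of both lines, ACAT2 and FDPS lay closest to the median of the 8 (0.164 and 0.177) and GGPS1 and PMVK furthest (1.91 and 1.89). Of 5255 protein-coding genes outside the list that reached 5 FPKM in 3 or more libraries, the nearest to that median was ERG28, whose yeast counterpart tethers enzymes of sterol C-4 demethylation, at a distance of 0.064 (log2 ratios -2.03 in HepG2 and -0.95 in PLC/PRF/5). SC5D, the sterol desaturase, lay at 0.357 (-1.68 and -0.89) and NSDHL, a sterol C-4 decarboxylating dehydrogenase, at 0.393 (-1.62 and -1.02).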

How the data were processed

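The authors deposited FPKM values per Ensembl gene for 4 libraries. Reads were aligned with TopHat2 to GRCh38, per the submitters' processing notes, with version, counter, annotation release and strand not given in the sources used here. Whole fragments were recovered from the FPKM values with GENCODE 29 exon lengths (24452 genes, within 0.001 fragments) or from ratios between libraries (7619 genes). Recovered fragments of HMGCS1, MVK and PMVK came from ratios. FPKM ratios carry 95% exact conditional binomial intervals, which cover counting error alone. For a gene of 1 kb, 3 fragments correspond to 0.140 to 0.179 FPKM. Log2 ratios of (FPKM + 1) were taken for genes reaching 1 FPKM in either library, with 2-fold as threshold. Limma 3.58.1 under R 4.3.3 (trend, Benjamini-Hochberg) gave the shared effect over genes reaching 1 FPKM in 2 or more libraries. The fit and the recovery were tested on simulated data. Named genes were the 8 members, their paralogs and neighbours, up to 3 of each list with the largest change and the nearest genes by response; a few genes that these rules select are not reported here. Members and lists were chosen with earlier results of these data known.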

Additional observations from a re-analysis of the deposited data

How the results depend on the processing

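All 80 log2 ratios of the 8 genes recomputed in the 2 lines under 5 alternatives (pseudocounts of 0.1 and 5, the TPM scale, median-of-ratios scaling and totals without the mitochondrial genome) were below 0. PMVK in HepG2 came nearest to 0, at -0.05 under median-of-ratios scaling. The median log2 ratio in HepG2 was -2.47 with a pseudocount of 0.1, -1.53 with one of 5, -2.64 on the TPM scale and -1.87 under median-of-ratios scaling, and in PLC/PRF/5 it was -0.68 with a pseudocount of 5 and -1.40 on the TPM scale. A pseudocount of 5 left 2 genes lower by 2-fold or more in PLC/PRF/5, 0 apart between the controls and 1 apart in response, where low genes are damped by construction. At 4-fold these counts were 0, 0 and 0, and 5 genes were lower in HepG2. The shared limma fit called 6 of the 8 genes on the TPM scale, with 4922 of 16340 genes called lower, and 0 under each other alternative. That scale moved the median of all genes to -0.48 in HepG2 and -0.43 in PLC/PRF/5, and median-of-ratios scaling moved it to -0.00 in HepG2 and 0.00 in PLC/PRF/5. Without TPM, the members' adjusted p ranged from 0.13 to 1.0. At an unadjusted limma p under 0.05, 6 of the 8 passed under median-of-ratios scaling, with 1384 of 12874 genes. With totals without the mitochondrial genome 5 passed, with 1432 of 13933 genes, and on the TPM scale 8, with 7897 of 16340. The labels give no replicate numbers; the shared fit paired each treated library with its control through the cell line block, and without that block 0 of the 8 genes were called. A quasi-likelihood count test of recovered fragments, listed as an alternative beside limma-voom, was not run. No replicate could be left out. Depth limits the PMVK ratio in HepG2 most, with 80 fragments in the treated library and 79 in the control.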
